A study of Mus musculus with 12 samples.

Results

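Adipokines are hormones and signalling proteins that fat tissue releases into the blood. The 9 described here were leptin (Lep), adiponectin (Adipoq), adipsin (Cfd), resistin (Retn), retinol-binding protein 4 (Rbp4), visfatin (Nampt), apelin (Apln), neuregulin 4 (Nrg4) and chemerin (Rarres2). They were taken by name, by matching the gene IDs of the expression table to these mouse symbols, and all 9 were found among its 30268 genes. A gene was tested when 3 or more of the 12 libraries listed it at 1 FPKM or above. FPKM takes transcript length and library size into account, so levels of different genes can be compared. This left 14340 genes, with 9 of the 9 adipokines among them.

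Messenger RNA was sequenced from the gonadal white fat of male C57BL/6 mice, with 3 biological replicates in each of 4 groups. The groups were miR-10a knockout (KO) mice on a high-fat diet (HFD), wild-type (WT) mice on HFD, KO mice on a normal chow diet (NCD) and WT mice on NCD. Feeding began at the age of 8 weeks and lasted 16 weeks in every group. How the KO allele was made, and whether the KO and WT mice were littermates, is not given in the sources used here. Libraries are named by group and by the animal number in the table, and values are given in the order KO_HFD 3, 5 and 8, WT_HFD 1, 2 and 4, KO_NCD 2, 3 and 4, and WT_NCD 1, 2 and 4.

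Leptin is made by fat cells in proportion to fat mass and acts on the brain to limit food intake. Adiponectin, in contrast, is known to be lower in the blood of obese animals and improves the response of liver and muscle to insulin. Adipsin is complement factor D, the protease that starts the alternative complement pathway, and in mice it is one of the most abundant products of the fat cell. Mouse resistin also comes from fat cells and lowers the response to insulin, whereas human resistin comes mainly from macrophages.

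The fat identity of the libraries was checked against 12 adipocyte markers, each of which was listed above 0 in every library, the lowest at 4.65 FPKM. The targeted gene Mir10a (NCBI gene 723893, GRCm38 chr11:96317165-96317274) was listed at 0.153 to 0.268 FPKM in KO_HFD, 0.0221 to 0.199 in WT_HFD, 0.0813 to 0.276 in KO_NCD and 0.0615 to 0.425 in WT_NCD. These values check nothing about the genotype, because libraries of polyadenylated RNA do not measure a mature microRNA. Depth is unknown, since the table holds no read counts. Between 12859 and 13667 genes were at or above 1 FPKM per library, and a library summed to between 383633 and 455434 FPKM. In 3 NCD libraries (KO_NCD 2, WT_NCD 2 and WT_NCD 4) the mean log2(FPKM + 1) of ciliated epithelium markers was 4.17, 3.73 and 3.48. In the other 9 it was 1.09 to 1.65. Adipokine calls that are lost without the 3 libraries are therefore given both ways. Genes of the other lists are given from all 12 libraries only, so whether their calls stay without the 3 is not shown. The fit without the 3 keeps 1 WT library on NCD, which is assumed to vary like the other groups.

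The microRNA that the KO mice lack is shown first, because a direct target would carry the complement of its seed. The mature sequence (RefSeq, GRCm38.p6, chr11:96317186-96317208, plus strand) has the seed, bases 2 to 8, in capitals.
miR-10a-5p: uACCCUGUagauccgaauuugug
The matching site in a messenger RNA reads ACAGGGT. It was found in the longest annotated 3′ UTR of 0 of the 9 adipokines, against 1807 of 12509 tested genes, or 14.4%. The UTRs searched ran from 69 bases for Cfd to 2816 bases for Nampt, with a median of 710, against a median of 1136 bases over the tested genes. Sites outside the 3′ UTR and sites with a shorter seed match were not searched.

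The 150 bases before the start site of the adipokines with the largest diet responses are shown next, for 4 genes that fell and 1 that rose. They come from RefSeq (GRCm38.p6), in which a promoter was found for 8 of the 9 genes. Capitals mark the motifs searched on both strands, which were the C/EBP palindrome TTGCGCAA, the CCAAT box, the TATA box as TATAA, and a direct repeat bound by PPARG with RXR, AGGNCANAGGNCA. Overlapping matches share their capitals. The GC box GGGCGG was searched too and is left in lower case, with a match in 4 of the 8 genes, Lep and Rbp4 among them, and in 28.6% of all promoters.
Lep (chr6:29060071-29060220, plus strand): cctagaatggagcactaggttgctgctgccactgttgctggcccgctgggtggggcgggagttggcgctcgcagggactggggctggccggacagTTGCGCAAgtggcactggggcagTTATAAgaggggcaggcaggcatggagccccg
Adipoq (chr16:23146386-23146535, plus strand): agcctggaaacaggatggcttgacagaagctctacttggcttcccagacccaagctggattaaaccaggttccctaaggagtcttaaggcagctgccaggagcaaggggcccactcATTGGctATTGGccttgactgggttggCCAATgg
Cfd (chr10:79890703-79890852, plus strand): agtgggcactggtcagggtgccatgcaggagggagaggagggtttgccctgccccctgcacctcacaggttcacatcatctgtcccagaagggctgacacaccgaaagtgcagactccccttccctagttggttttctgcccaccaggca
Retn (chr8:3655620-3655769, plus strand): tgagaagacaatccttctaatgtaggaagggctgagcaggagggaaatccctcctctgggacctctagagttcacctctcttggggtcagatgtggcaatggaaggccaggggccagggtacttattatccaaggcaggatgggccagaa
Rbp4, the second of 2 annotated start sites (chr19:38124812-38124961, minus strand): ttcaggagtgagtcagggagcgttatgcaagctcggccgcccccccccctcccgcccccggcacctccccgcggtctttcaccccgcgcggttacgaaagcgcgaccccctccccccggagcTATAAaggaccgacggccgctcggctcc
The Lep window held the C/EBP palindrome 55 to 48 bases before the start, a motif present in 37 of 32851 annotated promoters of this length, or 0.113%. It also held overlapping TATAA matches on both strands, 32 to 27 bases before the start. The Adipoq window held 3 CCAAT boxes, whereas 24.5% of all promoters held at least 1. A TATA box stood 28 to 24 bases before the second Rbp4 start site, and 14.2% of all promoters held one. The window of the first Rbp4 start site, which is not printed, held none of the motifs searched. The Cfd and Retn windows held none of these letters. The PPARG repeat, found in 0.228% of all promoters, was found for 0 of the 8 adipokine genes with a promoter.

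Diet reordered the adipokines within the fat pad. These are values of whole tissue, in which fewer cells of a type and less RNA per cell cannot be told apart. With HFD, Lep had the largest mean share of the summed FPKM of the 9 genes, at 39.5% in KO mice and 32.8% in WT mice. On NCD its share was 2.41% in KO_NCD and 2.38% in WT_NCD. Cfd made up 6.66% in KO_HFD and 9.72% in WT_HFD, against 58.6% in KO_NCD and 58.2% in WT_NCD, where it led. Adipoq was next at 30.2% in KO_HFD and 31.7% in WT_HFD, against 18.0% in KO_NCD and 17.7% in WT_NCD. In WT_HFD it was thus close to Lep, and in the library WT_HFD 2 it was above Lep. The 9 genes together took 0.336% to 0.612% of all FPKM in KO_HFD libraries and 0.697% to 0.815% in WT_HFD, against 2.3% to 3.84% in KO_NCD and 2.60% to 2.84% in WT_NCD. Ranked by mean FPKM among all 30268 genes, Cfd stood at 388 in KO_HFD and 158 in WT_HFD, against 4 in KO_NCD and 5 in WT_NCD.

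On HFD, 1 adipokine was higher and 6 were lower than on NCD in KO mice, and the same counts were found in WT mice, by limma with Benjamini-Hochberg adjustment over all tested genes and a threshold of 0.05. Diet moved much of the transcriptome. In KO, 34.6% of all tested genes were called higher and 26.2% lower, or 60.9% in either direction. In WT, 25.4% were called higher and 25.3% lower, or 50.8% in either direction. The number of adipokines called is therefore to be read against a background in which more than 1 tested gene in every 2 was called. The median log2 fold change of the 9 adipokines was -1.39 in KO and -0.93 in WT, against 0.04 and -0.03 over all tested genes. HFD and NCD libraries did not overlap for 7 of 9 adipokines in KO and 8 of 9 in WT, against 66.7% and 64.5% of all tested genes.

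**Figure D1:**
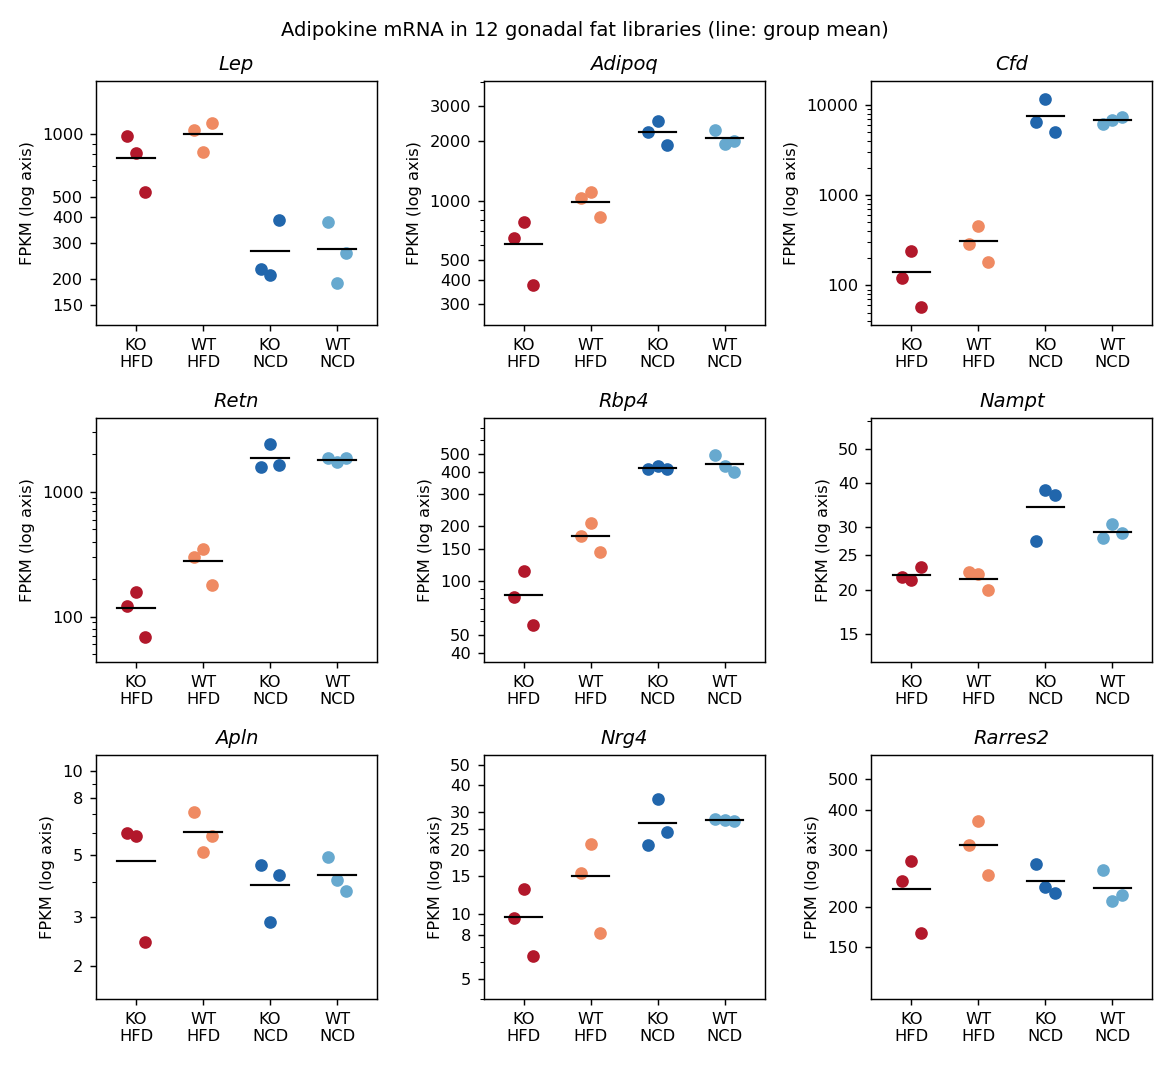
FPKM (log axis, scaled separately for each gene) of the 9 adipokines in the 12 gonadal fat libraries, with 1 point per library and a line at each group mean. Lep is higher in the HFD groups, Adipoq, Cfd, Retn, Rbp4, Nampt and Nrg4 are lower in them (Nampt not relative to adipocyte markers, at 0.56 in KO and 0.17 in WT), and the Apln and Rarres2 values of KO_HFD and KO_NCD overlap.

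Leptin was the adipokine that rose. Lep (NCBI gene 16846, GRCm38 chr6:29060221-29073876) was at 977, 811 and 529.7 FPKM in KO_HFD and at 224, 211 and 388 FPKM in KO_NCD. Every KO mouse on HFD was above every KO mouse on NCD. In WT_HFD the values were 1055, 823 and 1129.7 FPKM, against 378, 192 and 267 FPKM in WT_NCD, again without overlap. The means were 773 ± 226 in KO_HFD and 274 ± 99.0 in KO_NCD, a 2.82-fold difference, and 1003 ± 160.1 in WT_HFD and 279 ± 93.4 in WT_NCD, a 3.59-fold difference (FPKM, SD, n = 3 each). The log2 fold change, on the log2(FPKM + 1) scale as for all fold changes below, was 1.504 in KO (95% interval 0.82 to 2.19, adjusted p = 0.00155) and 1.88 in WT (1.2 to 2.56, adjusted p = 0.000536).

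Adiponectin moved the other way. Adipoq (11450, chr16:23146536-23157968) was at 650.5, 784 and 376 FPKM in KO_HFD, against 2229, 2517 and 1905 FPKM in KO_NCD. In WT mice it was at 1029, 1110.5 and 825 FPKM on HFD, against 2291, 1928 and 1994 FPKM on NCD. All 6 HFD libraries were below all 6 NCD libraries. The mean was 3.67-fold lower on HFD in KO (604 ± 208 against 2217 ± 306 FPKM) and 2.096-fold lower in WT (988 ± 147 against 2071 ± 193 FPKM, SD, n = 3 each). Adipoq fell by 1.93 on the log2 scale in KO (SE 0.24, adjusted p = 4.51e-05) and by 1.07 in WT (SE 0.24, adjusted p = 0.00343). Without the 3 libraries high in ciliated markers, where the lone WT_NCD library takes its spread from the other groups, the WT fold change was -1.22 and was not called (adjusted p = 0.0548).

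The ratio of adiponectin to leptin, used in blood as a sign of fat tissue function, was formed here from the mRNA of each library. It was 0.666, 0.966 and 0.711 in KO_HFD and 0.98, 1.35 and 0.730 in WT_HFD, so that the 2 mRNAs were close to parity. It was 9.97, 11.9 and 4.91 in KO_NCD and 6.06, 10.02 and 7.46 in WT_NCD. The mean ratio was thus 11.5-fold lower on HFD in KO (0.781 ± 0.162 against 8.94 ± 3.63) and 7.71-fold lower in WT (1.02 ± 0.312 against 7.85 ± 2.01, SD, n = 3 each). The diets did not overlap in either genotype, and the two-sided exact permutation p was 0.1 in each, the smallest that 3 libraries against 3 allow. Between genotypes the exact permutation p was 0.2 on HFD and 0.9 on NCD.

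**Figure D2:**
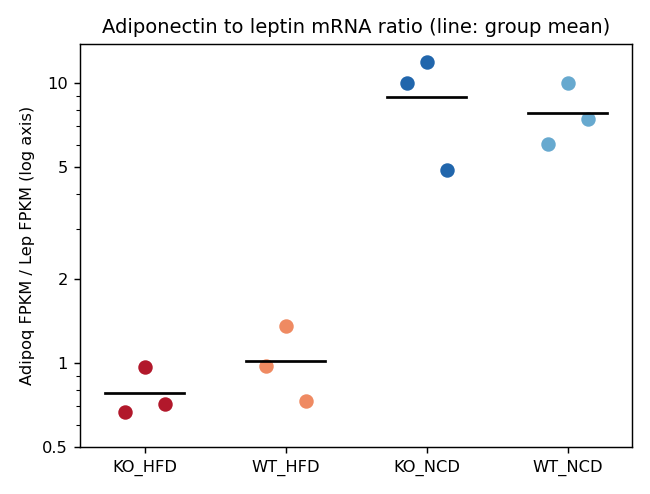
FPKM of Adipoq divided by FPKM of Lep (log axis) in each of the 12 libraries, with a line at each group mean. The 6 HFD libraries lie between 0.666 and 1.35, and the 6 NCD libraries lie between 4.91 and 11.9.

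Adipsin had the largest diet response of the 9. Cfd (11537, chr10:79890853-79892655) was at 122, 243 and 57.9 FPKM in KO_HFD, against 6429, 11594 and 5024 FPKM in KO_NCD. In WT_HFD it was at 288, 456 and 182 FPKM, against 6255, 6780.1 and 7413 FPKM in WT_NCD. The highest HFD library was thus far below the lowest NCD library. The mean level on HFD was 1.84% of that on NCD in KO (141 ± 94.0 against 7683 ± 3459.7 FPKM) and 4.53% in WT (309 ± 138 against 6816 ± 579.7 FPKM, SD, n = 3 each). On the log2 scale Cfd fell by 5.90 in KO (adjusted p = 2.79e-06) and by 4.56 in WT (adjusted p = 3.27e-05). Its spread was wide, with a coefficient of variation of 66.6% in KO_HFD and 44.8% in WT_HFD, against 45.0% in KO_NCD and 8.5% in WT_NCD.

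Resistin followed adipsin in size. Retn (57264, chr8:3655770-3659818) was at 121, 159 and 69.0 FPKM in KO_HFD, against 1569, 2434 and 1628 FPKM in KO_NCD. In WT_HFD it was at 301, 352 and 180.1 FPKM, against 1866, 1727 and 1857 FPKM in WT_NCD. The lowest NCD library was more than 4 times the highest HFD library. Retn fell by 4.05 on the log2 scale in KO (adjusted p = 1.65e-06) and by 2.76 in WT (adjusted p = 4.45e-05), a mean 16.1-fold lower in KO and 6.55-fold lower in WT. Of its family, which shares a cysteine-rich fold, Retnla was also tested, at 88.8 FPKM on average in KO_HFD and 175 in WT_HFD, against 393 in KO_NCD and 548 in WT_NCD. It fell by 2.18 in KO and by 1.65 in WT (adjusted p = 1.29e-05 and 0.000155).

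Rbp4 carries retinol in the blood and, in mice, rises in the circulation with insulin resistance. Its mRNA in the gonadal fat (19662, chr19:38116620-38125321) was at 81.7, 113 and 56.6 FPKM in KO_HFD, against 417, 433 and 413 FPKM in KO_NCD. The WT values were 176, 209.7 and 144 FPKM on HFD, against 495, 432 and 401 FPKM on NCD. All HFD libraries were below all NCD libraries, and the KO_HFD libraries were below the WT_HFD libraries. Rbp4 fell by 2.37 on the log2 scale in KO (95% interval -2.84 to -1.90, adjusted p = 4.66e-06) and by 1.33 in WT (SE 0.21, adjusted p = 0.000446).

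Nampt encodes the enzyme that salvages nicotinamide into NAD, and a form of it is released by fat cells as visfatin. Nampt (59027, chr12:32820335-32853369) was at 21.7, 21.3 and 23.2 FPKM in KO_HFD, against 27.4, 38.2 and 37.1 FPKM in KO_NCD. In WT_HFD it was at 22.4, 22.1 and 19.9 FPKM, against 27.9, 30.7 and 29.0 FPKM in WT_NCD. These were small shifts without overlap, by -0.60 on the log2 scale in KO (adjusted p = 0.000775) and -0.43 in WT (adjusted p = 0.00827). The direction depended on the scale, because relative to the adipocyte markers of the same libraries the fold change of Nampt was 0.56 in KO (adjusted p = 0.0260) and 0.17 in WT (adjusted p = 0.519).

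Nrg4, a ligand of the receptor ERBB4 that acts on the liver, was at 9.59, 13.1 and 6.39 FPKM in KO_HFD, against 21.2, 34.6 and 24.2 FPKM in KO_NCD (83961, chr9:55220222-55283654). In WT it was at 15.7, 21.3 and 8.15 FPKM on HFD, against 27.95, 27.5 and 27.3 FPKM on NCD. The diets did not overlap in either genotype. Nrg4 fell by 1.39 in KO (adjusted p = 0.00275) and by 0.93 in WT (adjusted p = 0.0296). The WT call was lost without WT_HFD 4 (fold change -0.57, adjusted p = 0.111), without any 1 of the WT_NCD libraries (adjusted p from 0.0610 to 0.0669), without the filter on low values (0.0675) and in the fit with the lone WT_NCD library (fold change -0.95, adjusted p = 0.197).

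Apelin and chemerin gave no diet call. Apln, the ligand of the receptor APLNR (30878, chrX:48025146-48034853), was at 6.01, 5.87 and 2.43 FPKM in KO_HFD, against 4.60, 2.87 and 4.23 FPKM in KO_NCD, with overlap. In WT_HFD it was at 7.13, 5.14 and 5.84 FPKM, against 4.94, 4.06 and 3.72 FPKM in WT_NCD. Its log2 fold change was 0.18 in KO (95% interval -0.38 to 0.74, adjusted p = 0.553) and 0.42 in WT (-0.14 to 0.98, adjusted p = 0.184). The KO value turned on KO_HFD 8, without which it was 0.52 (adjusted p = 0.0265). Fitted on the WT groups alone, the WT difference passed the threshold (adjusted p = 0.0333).

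Rarres2 encodes chemerin, which attracts immune cells through CMKLR1 and supports fat cell differentiation. It was at 242, 278 and 166 FPKM in KO_HFD, against 272, 231 and 221 FPKM in KO_NCD (71660, chr6:48569696-48572845). In WT it was at 311, 369 and 251 FPKM on HFD, against 261, 209 and 218 FPKM on NCD. Both pairs of groups overlapped. The log2 fold change was -0.11 in KO (-0.53 to 0.32, adjusted p = 0.649) and 0.43 in WT (adjusted p = 0.0864), and without WT_HFD 4 the WT value was 0.57 (adjusted p = 0.0466). The annotated spans of Nampt, Nrg4 and Rarres2 overlap those of Gdap10, Fbxo22 and Lrrc61. Whether fragments were assigned by strand is not given in the sources used here, so fragments from the shared stretches cannot be told apart.

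**Figure D3:**
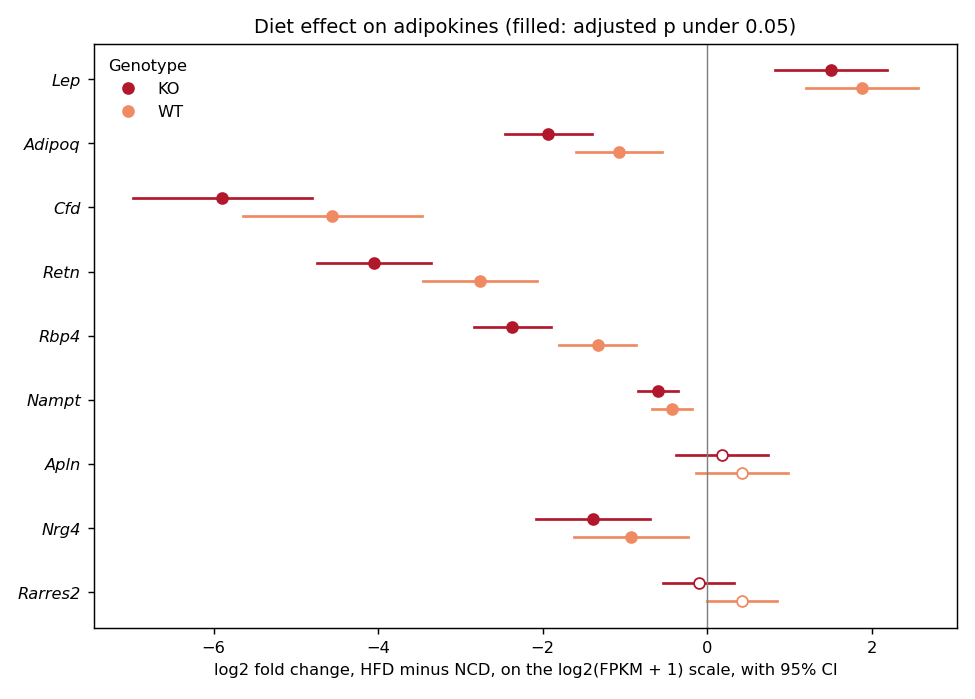
Log2 fold change of each adipokine, HFD minus NCD on the log2(FPKM + 1) scale, in KO and WT mice with 95% intervals from limma, filled where the adjusted p is under 0.05. Lep lies right of 0 at 1.504 in KO and 1.88 in WT, and Cfd lies farthest left at -5.90 in KO and -4.56 in WT.

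Markers of cell types moved with diet in the same libraries, and their part in the adipokine responses was not tested beyond the scale given next. The 12 adipocyte markers had a summed level of 7169 to 12387 FPKM in KO_HFD and 12400 to 16114 in WT_HFD, against 18740 to 22992 in KO_NCD and 19594 to 20566 in WT_NCD. Of them, 9 were lower and 0 higher on HFD in KO, and 6 were lower and 2 higher in WT. The shares of all tested genes were 26.2% lower and 34.6% higher in KO, and 25.3% and 25.4% in WT. Plin1, which coats the lipid droplet, fell by 1.44 in KO and by 0.98 in WT. The 14 macrophage markers were all called higher in both genotypes, with a summed level of 4612 to 6724 FPKM in KO_HFD and 3035 to 4300 in WT_HFD, against 446 to 578 in KO_NCD and 541 to 700 in WT_NCD. None of these 14 markers was listed at 0 in any library. The macrophage receptor Adgre1 averaged 171 FPKM in KO_HFD and 105 in WT_HFD, against 6.94 in KO_NCD and 9.03 in WT_NCD.

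When each library was centred on its mean adipocyte marker level, the falls of Adipoq, Cfd, Retn and Rbp4 were smaller and remained called in both genotypes. This scale moved the fold changes by 1.16 in KO and by 0.59 in WT. Relative to the adipocyte markers, Cfd had a diet fold change of -4.74 in KO and -3.96 in WT, and Retn of -2.90 and -2.17. Adipoq was at -0.78 in KO and -0.48 in WT (adjusted p = 0.0174 in WT), and Rbp4 was at -1.22 and -0.74. The Nrg4 difference no longer passed in KO (-0.24, adjusted p = 0.313) or WT (-0.33, adjusted p = 0.197). Lep was higher by 2.66 in KO and 2.48 in WT. Rarres2, without a call on the plain scale, was at 1.05 in KO and 1.02 in WT (adjusted p = 3.08e-05 and 0.000173), and Apln was at 1.34 and 1.02. Of the 14340 tested genes, 12374 were called for diet in KO on this scale, against 8730 on the plain scale. In WT the counts were 7283 and 7279. The KO calls of Rarres2, Apln and Nampt on this scale are to be read against that background. The Rarres2 value in KO was close to the shift of 1.16 shared by every gene. Median centring moved the fold changes of all genes by -0.145 in KO and by -0.03 in WT.

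On NCD no adipokine was called between the genotypes. KO and WT libraries overlapped for all 9 adipokines, whereas 9.45% of all tested genes did not overlap. None of the 9 passed in limma after adjustment (adjusted p from 0.967 to 0.996), 0 did so at an unadjusted p under 0.05, against 5.1% of all tested genes, and 0.0488% of all tested genes were called. The log2 fold changes lay between -0.11 and 0.21. The interval was narrow for Nampt (0.21, -0.03 to 0.45) and wide for Cfd (0.08, -1.0 to 1.17), so that a change of Cfd by up to about 1 on the log2 scale in either direction was not detectable here.

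On HFD, 8 of the 9 fold changes between KO and WT were below 0, of which Rbp4, Retn, Cfd and Adipoq stayed below 0 relative to the adipocyte markers, and 1 adipokine was called. The called gene was Rbp4, at 83.7 ± 28.2 FPKM in KO_HFD and 177 ± 33.0 FPKM in WT_HFD (SD, n = 3 each), or 47.4% of the WT level. Its log2 fold change was -1.11 (SE 0.21, 95% interval -1.58 to -0.64, adjusted p = 0.0476). Of all tested genes 0.802% were called in this comparison, and 0.202% of all tested genes were called lower. The call stood close to the threshold. It was lost with a pseudocount of 0.1 (adjusted p = 0.0532), without the filter (0.0786), in a fit of the HFD groups alone (0.124) and without the 3 libraries high in ciliated markers (0.110). It was also lost without WT_HFD 1 (0.198), WT_HFD 2 (0.1995), KO_HFD 3 (0.105) or KO_HFD 8 (0.113), with fold changes between -0.86 and -1.35 over the 6 fits that left out 1 library.

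Resistin and adiponectin were not called between the genotypes on HFD. Retn averaged 116 ± 45.0 FPKM in KO_HFD and 277 ± 88.1 FPKM in WT_HFD (SD, n = 3 each), with a log2 fold change of -1.27 (-1.96 to -0.58, adjusted p = 0.0666). It passed without WT_HFD 4 (adjusted p = 0.0310) or KO_HFD 5 (0.0474). Adipoq averaged 604 ± 208 FPKM in KO_HFD and 988 ± 147 FPKM in WT_HFD, with a log2 fold change of -0.76 (-1.29 to -0.24, adjusted p = 0.0998), which was -0.46 without KO_HFD 8 (adjusted p = 0.289). Rbp4, Retn and Adipoq were the 3 of 9 adipokines whose KO_HFD and WT_HFD libraries did not overlap, a share close to the 30.7% of all tested genes.

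The remaining adipokines overlapped between genotypes on HFD. Cfd had a log2 fold change of -1.26 (-2.34 to -0.17, adjusted p = 0.157), at 45.7% of the WT mean, and its KO_HFD 5 library lay above WT_HFD 4. Lep was at -0.41 (-1.09 to 0.27, adjusted p = 0.440), Rarres2 at -0.46 (adjusted p = 0.180) and Nrg4 at -0.54 (adjusted p = 0.311). Apln was at -0.35 (adjusted p = 0.422) and Nampt at 0.04 (adjusted p = 0.872). An unadjusted p under 0.05 was reached by 5 of the 9, against 24.3% of all tested genes. Without KO_HFD 8 the fold change of Cfd was -0.74 (adjusted p = 0.489).

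The lower values in KO_HFD are set here beside the order of the 6 HFD libraries and beside markers of several cell types. KO_HFD 8 was the lowest of the 6 HFD libraries for 8 of the 9 adipokines and the highest for Nampt, and WT_HFD 2 was the highest for 6. Of these 6 libraries KO_HFD 8 also had the lowest summed FPKM, at 383633. For what share of all tested genes KO_HFD 8 was lowest is not given here. In the same libraries the mean log2(FPKM + 1) of the adipocyte markers was 7.74, 7.96 and 7.15 in KO_HFD and 8.31, 8.31 and 7.90 in WT_HFD. The mean over the macrophage markers was 7.53, 7.37 and 7.84 in KO_HFD and 6.80, 6.80 and 7.25 in WT_HFD. KO_HFD 8 was thus lowest in adipocyte and highest in macrophage markers. It was also lowest in endothelial markers, at 3.79, against 4.61 and 4.70 in the other KO_HFD libraries and 4.43 to 5.07 in WT_HFD. Progenitor markers were at 5.72 to 5.80 in KO_HFD and 5.46 to 5.56 in WT_HFD. The part of these cell types in the adipokine differences was not tested. None of the 12 adipocyte markers was called between the genotypes on HFD, where 0.802% of all tested genes were called. Their fold changes were all below 0, from -0.63 for Cidec to -0.39 for Slc2a4 (median -0.58). Of the 14 macrophage markers 2 were called higher in KO, Fcgr1 at 0.52 and Itgax at 0.88. Relative to the adipocyte markers, which moved the HFD fold changes by 0.56, Rbp4 was at -0.55 (adjusted p = 0.0393), Retn at -0.72 (0.0393), Nampt at 0.59 (0.0432) and Adipoq at -0.21 (0.225). Of the 14340 tested genes, 6868 were called between the genotypes on HFD on this scale, against 115 on the plain scale. The 3 adipokine calls on this scale are to be read against that background. The Nampt value was close to the shift of 0.56 shared by every gene.

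**Figure D4:**
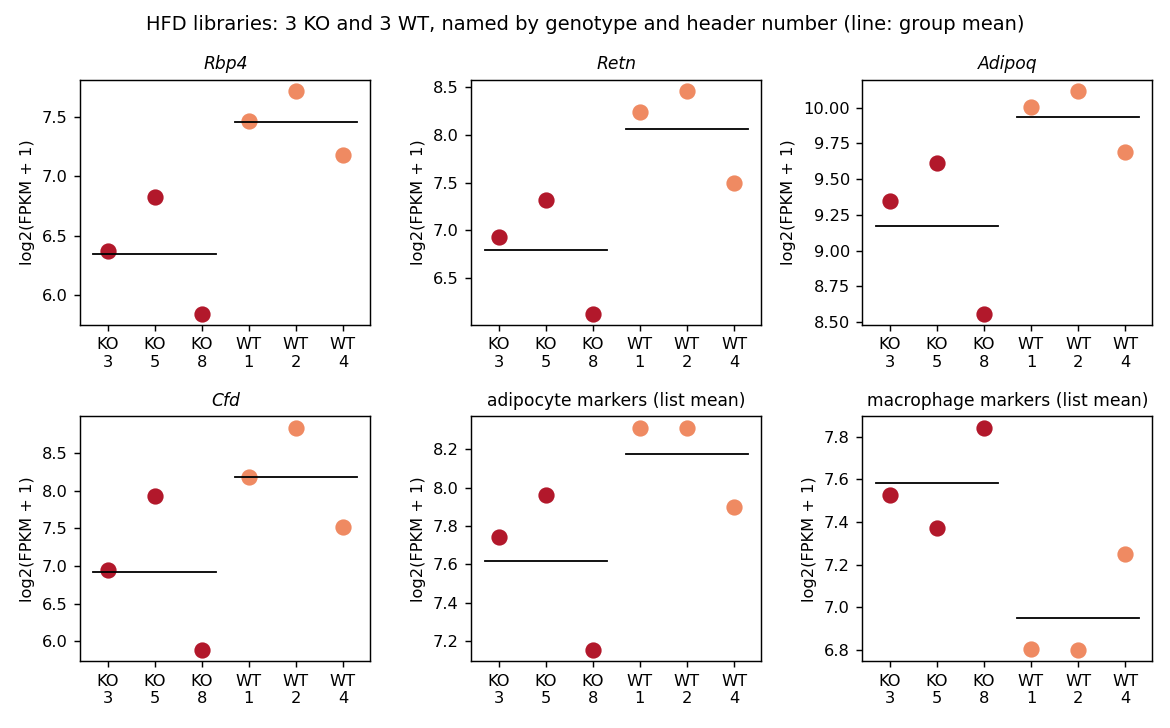
Log2(FPKM + 1) of Rbp4, Retn, Adipoq and Cfd, and the mean log2(FPKM + 1) of the adipocyte and macrophage marker lists, in the 3 KO and 3 WT libraries on HFD, with a line at each group mean and axes that do not start at 0. KO 8 is lowest in the 4 genes and in adipocyte markers (7.15) and highest in macrophage markers (7.84).

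The diet response itself was compared between KO and WT by the interaction term, which is below 0 where the fold change was lower in KO. None of the 9 adipokines was called in limma, against 0.272% of all tested genes, and 3 reached an unadjusted p under 0.05, against 18.5% of all tested genes. Those were Rbp4 at -1.04 (adjusted p = 0.152), Retn at -1.29 (adjusted p = 0.193) and Adipoq at -0.86 (adjusted p = 0.223). The fall of Cfd differed by -1.34 (adjusted p = 0.327) and the rise of Lep by -0.38 (adjusted p = 0.676). All 9 estimates were below 0, with a median of -0.53 against 0.09 over all tested genes. The 9 share the same libraries, and relative to the adipocyte markers 4 of 9 were below 0. Without KO_HFD 8, and likewise without the 3 libraries high in ciliated markers, 8 of 9 were below 0. Apln was then at 0.10 and at 0.05, and in the fit without the 3 libraries Lep was at -0.01.

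The receptors of these hormones were read in the same tissue from a list of 18 genes, 14 of which were tested. On HFD, 7 were higher and 3 lower in KO (median fold change 0.85), and 8 were higher and 1 lower in WT (0.79). Diet shares over all tested genes were 34.6% higher and 26.2% lower in KO, and 25.4% and 25.3% in WT. None of the 14 was called between genotypes, against 0.0488% of all tested genes on NCD and 0.802% on HFD. The leptin receptor Lepr did not pass the filter, at 0.517 ± 0.192 FPKM in KO_HFD and 0.541 ± 0.149 in WT_HFD, against 0.434 ± 0.0717 in KO_NCD and 0.694 ± 0.127 in WT_NCD (SD, n = 3 each). Stra6, the retinol-binding protein receptor, and Erbb4, the receptor of Nrg4, were below it too, with group means of at most 0.181 and 0.106 FPKM. Gpr1, a second chemerin receptor, averaged 0.647 to 0.875 FPKM.

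The adiponectin receptors were present at higher levels. Adipor1 averaged 46.4 FPKM in KO_HFD and 44.1 in WT_HFD, against 47.3 in KO_NCD and 48.1 in WT_NCD, with fold changes of -0.03 in KO (adjusted p = 0.697) and -0.12 in WT (adjusted p = 0.0786). Adipor2 averaged 95.2 and 114 FPKM in KO_HFD and WT_HFD, against 159 and 146 in KO_NCD and WT_NCD. It fell by 0.73 in KO (adjusted p = 0.00180), its WT fold change was -0.36 (adjusted p = 0.0742), and relative to the adipocyte markers both turned, to 0.43 in KO and 0.24 in WT. Cdh13, the T-cadherin that binds adiponectin at the vessel wall, was at -0.50 in KO and -0.19 in WT (adjusted p = 0.119 and 0.570). On the adipocyte scale Cdh13 turned too, to 0.656 in KO and 0.407 in WT, and Adipor1 to 1.13 and 0.471.

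The receptors that rose most were those for complement fragments, which adipsin helps to generate. C3ar1, the receptor for C3a, averaged 81.6 ± 14.9 FPKM in KO_HFD and 50.8 ± 10.04 in WT_HFD, against 2.82 ± 0.609 in KO_NCD and 3.65 ± 0.918 in WT_NCD (SD, n = 3 each). It rose by 4.43 on the log2 scale in KO and by 3.48 in WT (adjusted p = 4.72e-08 and 5.05e-07). The C5a receptors C5ar1 and C5ar2 rose by 3.27 and 2.48 in KO and by 2.34 and 1.84 in WT. These receptors are known from macrophages, whose markers rose in the same libraries, and the part of those cells was not tested. Cap1, described in human cells as a resistin receptor, rose by 1.58 in KO and by 1.03 in WT. Tlr4, also proposed to bind resistin, rose by 0.93 and 0.62.

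For apelin and chemerin, ligand and receptor are given side by side. The apelin receptor Aplnr averaged 17.1 FPKM in KO_HFD and 25.8 in WT_HFD, against 8.94 in KO_NCD and 9.69 in WT_NCD. It rose by 1.29 in WT (adjusted p = 0.00559) and had a fold change of 0.77 in KO (adjusted p = 0.0501). Cmklr1, the signalling receptor of chemerin, fell by 0.44 in KO (adjusted p = 0.0325) and was at -0.32 in WT (adjusted p = 0.107), against 0.72 and 0.27 relative to the adipocyte markers. Ccrl2, which binds chemerin without signalling, rose by 1.23 in KO and by 0.97 in WT. Of the partners of Erbb4, Erbb2 fell by 0.67 in KO, where it turned to 0.49 relative to the adipocyte markers, and by 0.82 in WT, and Erbb3 was not called in either.

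**Figure D5:**
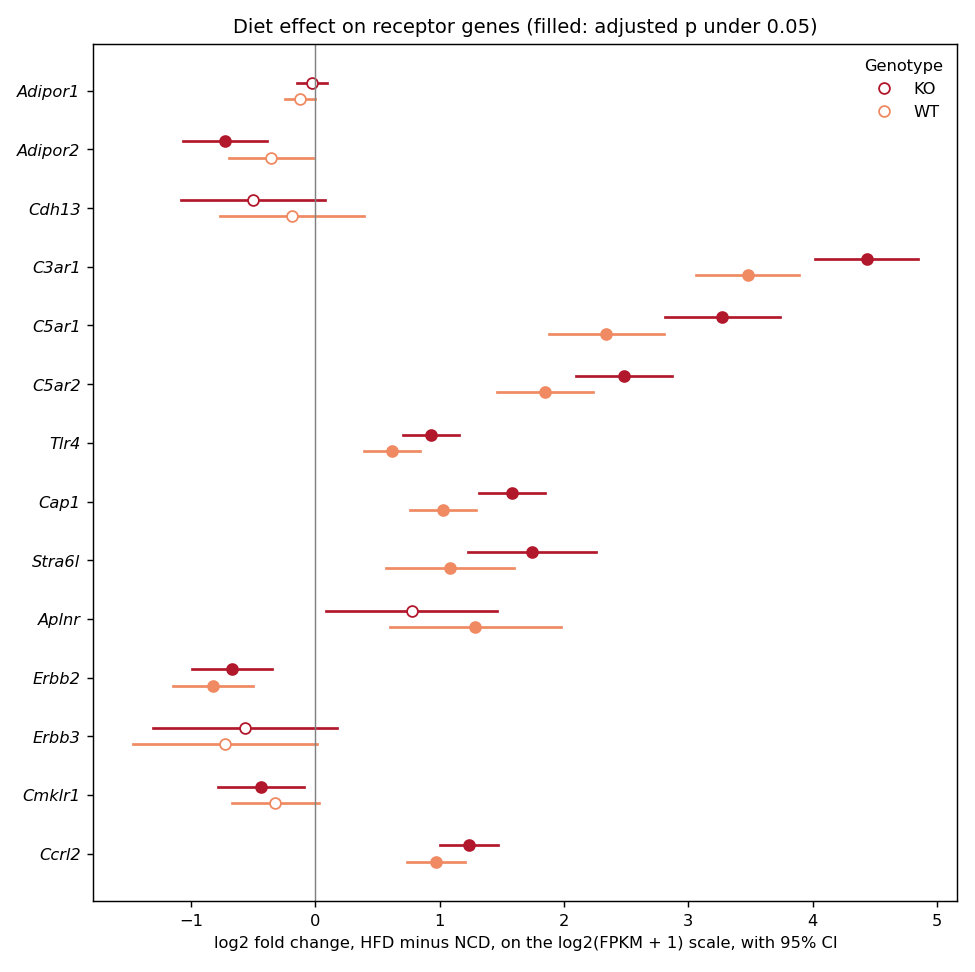
Log2 fold change, HFD minus NCD on the log2(FPKM + 1) scale, of the 14 tested receptor genes in KO and WT mice with 95% intervals from limma, filled where the adjusted p is under 0.05. C3ar1 lies farthest right at 4.43 in KO and 3.48 in WT, and Adipor1 lies near 0.

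Around adipsin, genes of the alternative complement pathway went in both directions. Of 9 tested genes, 6 were higher and 2 lower on HFD in KO (median 0.62), against 34.6% and 26.2% of all tested genes. In WT 3 were higher and 2 lower (median 0.19), shares near the 25.4% and 25.3% of all tested genes. C3, the central component, averaged 452 FPKM in KO_HFD and 390 in WT_HFD, against 143 in KO_NCD and 182 in WT_NCD, and rose by 1.69 in KO and by 1.11 in WT (adjusted p = 1.13e-05 and 0.000364). Cfb, the protein that adipsin cleaves, rose by 0.62 in KO and by 0.85 in WT. On HFD the mean FPKM of Cfd was thus below that of both C3 and Cfb in KO, and below that of C3 in WT. Properdin (Cfp) rose by 1.06 and 0.46.

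The machinery that folds and assembles adiponectin was mostly called higher where Adipoq fell. Of 10 chaperones and modifying enzymes, 8 were higher and 1 lower on HFD in KO (median 0.51), and 8 were higher and 2 lower in WT (median 0.41). Among all tested genes 34.6% were higher and 26.2% lower in KO, and 25.4% and 25.3% in WT. Plod1, a lysyl hydroxylase, rose by 0.88 in KO and by 0.86 in WT, and the chaperone Hspa5 rose by 0.87 and 0.47. Gstk1, also called DsbA-L and known to promote the assembly of adiponectin multimers, fell by 1.37 in KO and by 0.73 in WT (adjusted p = 6.88e-05 and 0.00615). Relative to the adipocyte markers Gstk1 was at -0.207 in KO and -0.132 in WT.

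Downstream of leptin, 5 of 9 tested signalling genes were higher and 0 lower on HFD in KO (median 0.44), and 4 were higher and 0 lower in WT (median 0.31). The higher genes included Ptpn1, the phosphatase that ends leptin receptor signalling, at 1.31 in KO and 0.85 in WT, the adaptor Grb2 at 1.18 and 0.71, and Stat3 at 0.56 and 0.40. Of all tested genes, 34.6% were higher and 26.2% lower in KO, and 25.4% and 25.3% in WT. These shares stand beside the leptin list and the NAD genes. Of 13 NAD genes, 1 was higher and 6 lower in KO (median -0.29), and 1 was higher and 7 lower in WT (median -0.33). On the adipocyte scale, which moved every gene up by 1.16 in KO and by 0.595 in WT, the medians were 0.87 and 0.27. The higher one was Parp1, a consumer of NAD, at 0.81 in KO and 0.48 in WT, while Sirt3 fell by 0.76 and 0.55 and Nmrk1, a kinase of another NAD route, by 0.58 and 0.60. On the adipocyte scale Sirt3 was at 0.40 in KO and 0.04 in WT, and Nmrk1 at 0.58 in KO.

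Retinoid genes around Rbp4 were mixed. Of 15 tested, 7 were higher and 6 lower on HFD in KO (median -0.43), and 6 were higher and 6 lower in WT (median -0.42). The medians were 0.73 and 0.17 relative to the adipocyte markers, where every gene moved up by 1.16 in KO and by 0.595 in WT. For comparison, 34.6% of all tested genes were higher and 26.2% lower in KO, and 25.4% and 25.3% in WT. The retinaldehyde dehydrogenase Aldh1a1 averaged 37.8 FPKM in KO_HFD and 42.2 in WT_HFD, against 102 in KO_NCD and 115 in WT_NCD, and fell by 1.42 in both. The retinaldehyde reductase Dhrs3 rose by 0.83 in KO and by 0.61 in WT. Rbp7, an intracellular retinol-binding protein of fat, fell by 2.08 in KO and by 1.04 in WT (adjusted p = 2.14e-05 and 0.00344). Stra6l, a relative of Stra6 that binds Rbp4 in mice, averaged 3.21 FPKM in KO_HFD and 1.99 in WT_HFD, against 0.247 in KO_NCD and 0.424 in WT_NCD.

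Transcription factors known to drive adipokine genes were mostly lower on HFD. Relative to the adipocyte markers their median was 0.35 in KO and -0.0087 in WT. That scale moved every gene up, by 1.16 in KO and by 0.595 in WT. Of 15 tested, 3 were higher and 10 lower in KO (median -0.81), and 3 were higher and 8 lower in WT (median -0.60). Across all tested genes 34.6% were higher and 26.2% lower in KO, and 25.4% and 25.3% in WT. Pparg averaged 55.7 FPKM in KO_HFD and 66.5 in WT_HFD, against 124 in KO_NCD and 119 in WT_NCD, and fell by 1.16 in KO and by 0.83 in WT. Cebpa, whose family binds the palindrome printed for Lep, fell by 1.21 and 0.93, whereas Cebpb of the same family rose by 0.59 in KO and by 0.98 in WT. Klf15 fell by 2.55 in KO and by 2.02 in WT, and Hif1a rose by 1.07 and 1.13. On the adipocyte scale Pparg was at 0.002 in KO and -0.236 in WT, and Cebpa at -0.045 and -0.339. Klf15 stayed lower on that scale, at -1.39 in KO and -1.42 in WT. None of the 15 was called between genotypes, against 0.0488% of all tested genes on NCD and 0.802% on HFD.

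Genes with the profile most like each adipokine were found among 5635 genes with a mean of at least 10 FPKM, by the mean absolute difference of centred log2 profiles over the 12 libraries. Adipoq was closest to Adhfe1, Lipe and Pnpla2 (differences of 0.0937, 0.102 and 0.109), the last 2 being lipases of the fat cell and members of the adipocyte marker list. The profile of Cfd was closest to Cyp2e1, Adrb3 and Fam13a (0.352, 0.426 and 0.621), and Adrb3, the fat cell adrenergic receptor, had diet fold changes of -4.88 in KO and -4.02 in WT. Retn was closest to Gsta3, Mogat1 and Pck1, and Rbp4 to Cdo1, Art3 and Smoc1. Lep stood near Pcolce2, Col6a2 and Synpo2 (0.212, 0.226 and 0.230), of which the first is a collagen-processing protein and the second a chain of collagen VI. Nrg4 was nearest to Mccc2, Mccc1 and Dgat1, Nampt to Clk1, Sdhb and Osbpl11, Apln to Syp, Pde2a and Cdr2, and Rarres2 to Sod3, Tnk2 and Ltbp3. These distances are descriptions, and genes with a flatter profile reach smaller values.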

How the data were processed

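RNA came from TRIzol extraction and a stranded mRNA kit made the libraries, per the labels' protocols. The authors deposited FPKM for 30268 genes by NCBI gene ID, per the file headers. The genome build was mm10, and HISAT2 2.1.0, StringTie 1.3.4d, DESeq2, Trimmomatic and bcl2fastq 2.20.0 are listed per the submitters' processing notes, without their roles. Of the IDs, 30196 matched a symbol in the GRCm38.p6 annotation. Column headers gave genotype and diet, and their animal numbers differ from the replicate numbers of the titles, so columns were tied to groups only.

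Values were analysed as log2(FPKM + 1), which understates fold changes of low genes, with limma 3.58.1 in R 4.3.3. A gene needed 1 FPKM in at least 3 of 12 libraries. The model had 4 group means, 8 residual degrees of freedom and a mean-variance trend, and p-values were adjusted by Benjamini-Hochberg within each of 5 comparisons. It was tested on simulated data. FPKM is relative to the rest of a library, and depth is unknown, so no counting interval is given. Low values showed no steps of whole reads.

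The 9 members, the gene lists and the naming rule were chosen with earlier results of these data known. The rule named all members, up to 3 genes per list with the lowest adjusted p for diet in KO, a fixed set of receptors, complement and marker genes, and the 3 most alike profiles. Other list genes were named after their values were seen. A gene that the rule picked is not reported here. Alternatives were a pseudocount of 0.1, no filter, quantile, median and adipocyte-marker scaling, no trend, only the groups compared, leaving out each library, and leaving out the 3 libraries high in ciliated markers.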

Additional observations from a re-analysis of the deposited data

How the results depend on the processing

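For diet, 7 of 9 adipokines were called in KO (7 to 8 over the fits without 1 library) and in WT (6 to 7), and every other alternative stayed within 1.5 times of these counts. The genotype result on HFD moved. On the main scale 1 adipokine was called there, against 0 with a pseudocount of 0.1, without the filter, with only the HFD groups or without the 3 libraries high in ciliated markers, 3 with centring on adipocyte markers, and 0 to 2 without 1 library. On NCD and in the interaction 0 adipokines were called by limma under each alternative run. Centring on adipocyte markers turned the diet fold change of Nampt to 0.17 in WT and 0.56 in KO, and that of Rarres2 in KO to 1.05. Counts over all genes moved as follows. The 7279 genes called for diet in WT became 3878 without the 3 libraries, the 7 called for genotype on NCD became 14 without the filter, 11 with 2 groups and 4 without the 3 libraries, with 6 to 15 without 1 library. The 115 called for genotype on HFD became 6868 with adipocyte centring, 24 with 2 groups and 25 without the 3 libraries, with 17 (without WT_HFD 1) to 953 (without WT_HFD 4). The 39 called in the interaction became 24 without the filter, 4 with quantile scaling, 13 with median centring, 5 with adipocyte centring and 17 without the 3 libraries, with 0 to 168 (without KO_NCD 2). The causes were not tested, beyond the fewer libraries in some fits. Quantile scaling moved single adipokines by up to 0.58 on the log2 scale, for Cfd in KO (-5.31), and changed no call among them. Without the 3 libraries high in ciliated markers the WT diet fold changes of Apln and Rarres2 were both 0.23. No paired analysis was possible because the columns carry animal numbers that are not the replicate numbers of the titles.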

Other observations

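Other proteins that fat secretes were more often called higher than lower on HFD. Of 22 tested, 11 were higher and 3 lower in KO (median log2 fold change 0.48), and 12 were higher and 3 lower in WT (median 0.68). Over all tested genes 34.6% were higher and 26.2% lower in KO, and 25.4% and 25.3% in WT. Metrnl, a secreted factor tied to fat browning, averaged 37.1 FPKM in KO_HFD and 26.5 in WT_HFD, against 3.75 in KO_NCD and 5.48 in WT_NCD, and rose by 2.998 in KO and by 2.08 in WT. Fstl1, a secreted glycoprotein, rose by 1.95 and 1.24. Angiotensinogen (Agt) averaged 11.0 FPKM in KO_HFD and 15.2 in WT_HFD, against 166 in KO_NCD and 128 in WT_NCD, and fell by 3.77 in KO and by 2.99 in WT (adjusted p = 1.74e-06 and 1.69e-05).

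Paralogs of adiponectin in the C1q and TNF related family differed among themselves. Of 7 tested, 3 were higher and 1 lower on HFD in KO (median 0.17), and 2 were higher and 1 lower in WT (median 0.16). The counts of higher genes were near the shares of all tested genes, at 34.6% in KO and 25.4% in WT. Lower genes made up 26.2% in KO and 25.3% in WT, and these shares also stand beside the lists below. C1qtnf6 rose by 1.58 in KO and by 1.29 in WT, whereas C1qtnf12, an adipose protein that improves insulin action in mice, fell by 1.17 and 0.77. On the adipocyte scale C1qtnf12 was at -0.006 in KO and -0.171 in WT. In the list of hypoxia response genes, 2 of 10 were higher and 3 lower in KO, and 1 was higher and 4 lower in WT. Its median was below 0 in both. Relative to the adipocyte markers it was 1.03 in KO and 0.37 in WT, where every gene moved up by 1.16 and 0.595. Vegfa fell by 1.75 in KO and by 0.83 in WT, and Bnip3 by 1.82 and 1.05, while Car9 rose by 1.26 and 0.84 with group means of at most 1.79 FPKM. Progenitor markers were higher on HFD in 8 of 9 in KO and 4 of 9 in WT. Pdgfra was called between genotypes on HFD in limma (0.43, adjusted p = 0.0483), where 0.802% of all tested genes were called. Endothelial markers were higher in 1 and lower in 2 of 9 in KO and were not called in WT. Mesothelial markers were called in 0 of 9 in KO and were lower in 9 of 9 in WT, ciliated markers were lower in 1 and 3 of 8, and among 7 brown and beige markers 0 were higher and 2 lower in KO, and 1 was higher and 1 lower in WT. The ciliated markers were high in the 3 NCD libraries named in the description of the samples.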
